A study of Homo sapiens with 20 samples.

Results

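The integrin and laminin subunits were followed in human melanoma cells in which FRA1 had been silenced. All protein-coding genes of the deposited count table whose symbol names an integrin alpha chain, an integrin beta chain or a laminin alpha, beta or gamma chain were taken, whatever their level, which gave 38 of 19986 protein-coding genes. They comprised 26 integrin subunits, of which 18 were alpha and 8 were beta chains, and 12 laminin chains. The genes were taken by symbol and not by a measured value, although earlier results of these data were known.

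Integrins are cell surface receptors made of 1 alpha and 1 beta chain that link the extracellular matrix to the actin or keratin skeleton, and the alpha chain largely sets the ligand. Laminins are secreted trimers of an alpha, a beta and a gamma chain that build basement membranes and are themselves bound by some integrins. In melanoma, a change in the set of integrins accompanies the passage of cells from the epidermis through the basement membrane into the dermis. FRA1, the product of FOSL1, belongs to the AP-1 family of transcription factors, which bind the FOS/JUN sequence as dimers of FOS and JUN proteins.

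RNA was sequenced from 2 established human melanoma cell lines, A375 and 1205Lu, after non-targeting siRNAs (si-NT) or siRNAs against FOSL1 (si-FRA1), with 3 samples in each of the 4 groups. Cut&Run, in which an antibody directs a nuclease to cut out the DNA a protein is bound to, was performed on A375 and 1205Lu cells with 3 FRA1 samples and 1 IgG control per line. The labels do not say whether the samples of a group were separate cultures, so p-values measure the spread between these samples, which may be technical. Each line is a single line, so differences between A375 and 1205Lu belong to these lines and are not replicated across melanomas. The time after siRNA delivery was not given in the sources used here.

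Total counts per RNA-seq sample lay between 20573412 and 32518903. FOSL1 itself was at 407 to 423 counts per 1000000 counts (CPM, on TMM-scaled library sizes) in A375 si-NT and at 25.6 to 26.0 in A375 si-FRA1 samples, and at 477 to 491 and 65.0 to 70.8 CPM in the corresponding 1205Lu samples. Among melanoma markers, SOX10, PRAME and VIM were expressed in both lines, whereas the pigment genes MLANA, TYR and DCT lay below 1 CPM in every group. Other melanoma markers differed between the si-NT groups of the lines. S100B was at 0.9911 CPM on average in A375 and 426.4 CPM in 1205Lu, and S100A1 at 1.201 and 187.7 CPM. MITF went the other way, at 52.12 CPM in A375 and 3.544 CPM in 1205Lu. All 5 leukocyte markers were below 1 CPM on average in each group, and the summed level of the 3 endothelial markers stayed between 1.58 and 2.72 CPM. The 5 fibroblast markers summed to 32.8 to 35.6 CPM in A375 si-NT and to 70.2 to 72.1 CPM in A375 si-FRA1 samples, and to 8.44 to 10.7 and 16.3 to 19.0 CPM in 1205Lu samples. PDGFRB and COL1A1 held most of that sum in A375, and DCN, below 1 CPM in each group, was not tested in that line. In A375 COL3A1 went from 1.11 to 9.45 CPM (log2 fold change 3.07) and LUM from 0.568 to 1.79 CPM (1.64), and in 1205Lu PDGFRB went from 6.51 to 14.9 CPM (1.16), all 3 passing the adjusted p and the fold limit of the test used for the subunits. Among melanoma markers the same held for PMEL in A375 (log2 fold change 1.19, from 0.489 to 1.13 CPM) and for S100A1, at 1.11 in A375 and -1.40 in 1205Lu. The 7 keratinocyte or epithelial markers summed to 1569 to 1598 CPM in A375 si-NT, to 1464 to 1510 CPM in A375 si-FRA1, to 84.2 to 86.4 CPM in 1205Lu si-NT and to 96.4 to 103 CPM in 1205Lu si-FRA1 samples. Nearly all of it was KRT18 and KRT8, and KRT5, KRT14, KRT1, EPCAM and CDH1 lay below 1 CPM in each group. The part of these markers in the results was not tested, and in bulk RNA fewer cells of a kind and less RNA per cell cannot be told apart.

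The lines differed widely in which subunits they expressed without silencing. Of the 38 members, 8 were tested in neither line for low counts (ITGA8, ITGAD, ITGAL, ITGAM, ITGB2, ITGB6, LAMB4 and LAMC3, with at most 17 counts in any sample), ITGB7, LAMA2 and LAMA3 were tested in A375 only and ITGA2B in 1205Lu only. Levels between genes are compared as CPM per kilobase of exon, given as mean ± SD of 3 samples. The length joins the exons of all annotated transcripts of a gene, and rankings between genes depend on it. In A375 si-NT cells the laminin receptor chain ITGA3 led the alpha chains at 82.8 ± 0.98, followed by ITGA6 at 29.8 ± 0.57, ITGA5 at 22.2 ± 0.47 and ITGA1 at 7.38 ± 0.21. In 1205Lu si-NT cells ITGA6, also a laminin receptor chain, stood at 211 ± 1.9, far above ITGA4 at 29 ± 0.43 and ITGA3 at 13.4 ± 0.35. A laminin receptor chain thus led in each line, but not the same one. Of the beta chains, A375 si-NT cells had mainly ITGB1 at 36.9 ± 0.4 and ITGB4 at 25.1 ± 0.57. 1205Lu si-NT cells had ITGB8 at 75.4 ± 0.79, ITGB1 at 68.8 ± 0.54, ITGB3 at 64.5 ± 0.61 and ITGB5 at 43.7 ± 0.59, of which the lowest ITGB8 sample exceeded the highest ITGB1 sample. ITGB4 was almost missing from 1205Lu si-NT, at 0.283 ± 0.075, and ITGB3 was low in A375 si-NT, at 1.3 ± 0.093.

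The lines also differed in their laminin alpha chains. LAMA5 was the leading alpha chain in A375 si-NT at 33.3 ± 0.41 CPM per kb and LAMA4 in 1205Lu si-NT at 76.1 ± 0.46, against 10.2 ± 0.37 for LAMA4 in A375 and 3.37 ± 0.16 for LAMA5 in 1205Lu. The beta chain LAMB1 and the gamma chain LAMC1, which occur in most laminin trimers, were close in both lines, at 39.5 ± 0.54 and 77.5 ± 0.75 in A375 and 42.1 ± 0.21 and 94.7 ± 2.5 in 1205Lu. LAMA3 and LAMB3, chains of epidermal laminin, lay at 0.299 and 2.72 CPM per kb in A375 si-NT and at 0.020 and 0.343 in 1205Lu si-NT samples. LAMB3 was thus the higher of them in both lines.

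**Figure D1:**
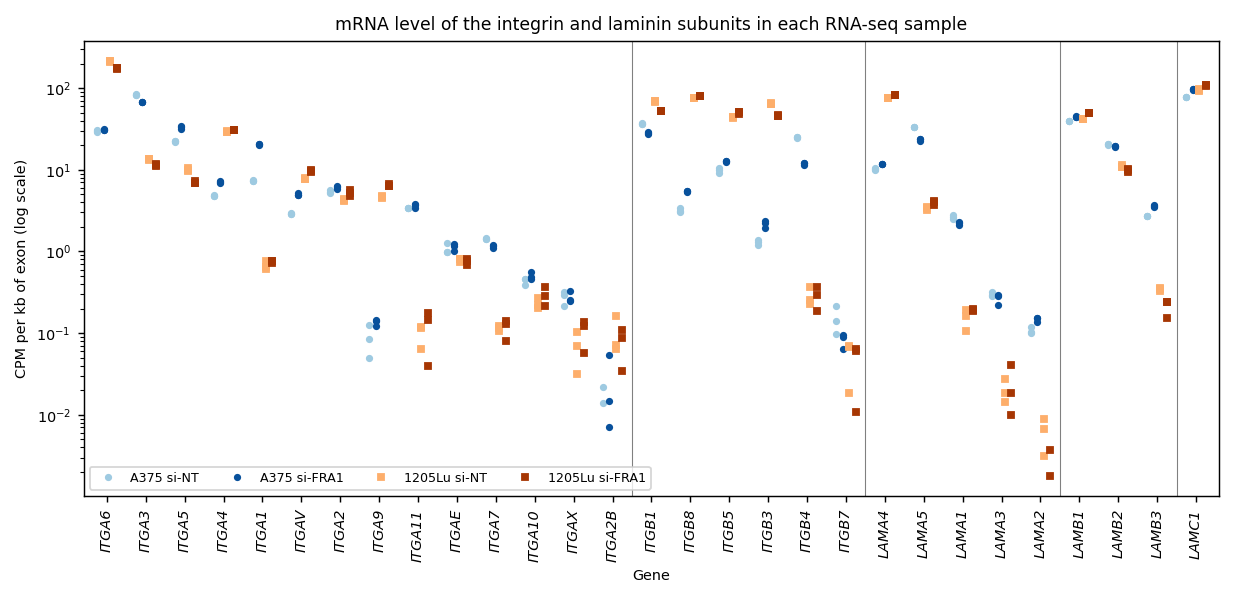
Levels of 29 of the 30 subunits tested in at least 1 cell line, as CPM per kb of exon on a log axis, with a point for each of the 12 RNA-seq samples. Circles are A375 and squares 1205Lu, light for si-NT and dark for si-FRA1, and grey lines part alpha, beta and laminin chains; samples at 0, with ITGA2B in 1 A375 si-NT sample and LAMA2 in 1 1205Lu si-FRA1 sample, are not drawn. ITGB4, ITGB3, ITGB8, ITGA9 and ITGA11 show the widest gaps between the lines.

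Over all 12 samples, 31 of the 38 members passed the filter on low counts, and 24 were called different between the si-NT groups by edgeR's quasi-likelihood test, with both an adjusted p below 0.05 and a log2 fold change beyond 1 in either direction required for a call here and below. Of these, 10 were higher in 1205Lu, where that call held for 19.5% of protein-coding genes, and 14 were higher in A375, as were 19.4% of protein-coding genes. Among them, ITGB7, LAMA2 and LAMA3, higher in A375, had passed the filter of a single line only there, as had ITGA2B in 1205Lu. ITGA8, higher in 1205Lu, had passed in neither line alone. These calls rest on few counts in the lower line, and those of ITGA8 and ITGB7 were lost without A375 si-NT replicate 1. The widest difference was in ITGB4, whose log2 fold change of 1205Lu over A375 was -6.50 ± 0.089 (SE), followed by ITGA9 at 5.72 ± 0.13, ITGB3 at 5.63 ± 0.046, ITGA11 at -5.08 ± 0.17 and ITGB8 at 4.56 ± 0.026. The other 7 tested members, ITGA10, ITGA2, ITGAE, ITGB1, LAMB1, LAMB2 and LAMC1, also passed the adjusted p, within 1 on the log2 scale.

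With si-FRA1 in A375 cells 14 rose and 8 fell of the 29 members that passed the filter in that line, at an adjusted p under 0.05. Among all protein-coding genes tested, 29.9% rose and 27.8% fell by the same test. The median log2 fold change (si-FRA1 over si-NT) was 0.18 over the 29 members and 0.01 over all genes. By role, the 2 tested chains that bind RGD ligands (ITGA5 and ITGAV) rose, 2 of 4 collagen-binding alpha chains rose and 2 of 3 laminin-binding alpha chains fell. Of 6 beta chains tested, 3 rose and 2 fell, and of 10 laminin chains 5 rose and 4 fell. Only 2 members also passed the fold limit, ITGA1 and ITGB4, where 5.29% of protein-coding genes were called.

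ITGA1 (ENSG00000213949.9, chr5:52787916-52959209, plus strand) encodes the alpha chain of a collagen and laminin receptor and rose most. It was at 133, 141 and 136 CPM in the A375 si-NT samples and at 383, 378 and 381 CPM in the si-FRA1 samples, which left a wide gap between the groups. The log2 fold change was 1.47 ± 0.025 (SE, edgeR quasi-likelihood test, adjusted p = 5.5e-23). PELO, a neighbouring gene that shares 499 exon bases with ITGA1, or 2.69% of the exon length of ITGA1, went from 51.4 ± 2.2 to 79.1 ± 0.65 CPM (SD, n = 3), and reads in the shared exons cannot be told apart between them. In 1205Lu cells ITGA1 was far lower, at 11.4, 14 and 12 CPM in the si-NT and 13.5, 14.3 and 14.1 CPM in the si-FRA1 samples. Those groups overlapped, and the log2 fold change of 0.15 ± 0.098 did not pass (adjusted p = 0.24).

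ITGB4 (ENSG00000132470.14, chr17:75721328-75757818, plus strand) encodes the long beta chain that pairs with ITGA6 in hemidesmosomes, the anchors of epithelial cells to the basement membrane. Its level was 171, 173 and 165 CPM in A375 si-NT and 81.9, 76.5 and 81.8 CPM in A375 si-FRA1 samples, so the groups did not overlap, and the log2 fold change was -1.09 ± 0.033 (adjusted p = 3.2e-18). In 1205Lu cells ITGB4 was low with either siRNA, at 1.53, 2.49 and 1.72 CPM and 1.26, 2.5 and 1.96 CPM. PLEC, which encodes plectin, the cytoplasmic partner of ITGB4, also fell in A375, from 2207 ± 33 to 934 ± 12 CPM, with a log2 fold change of -1.25 ± 0.014 (adjusted p = 1.7e-26). In 1205Lu PLEC fell by 0.19 on the log2 scale (adjusted p = 2.3e-11).

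**Figure D2:**
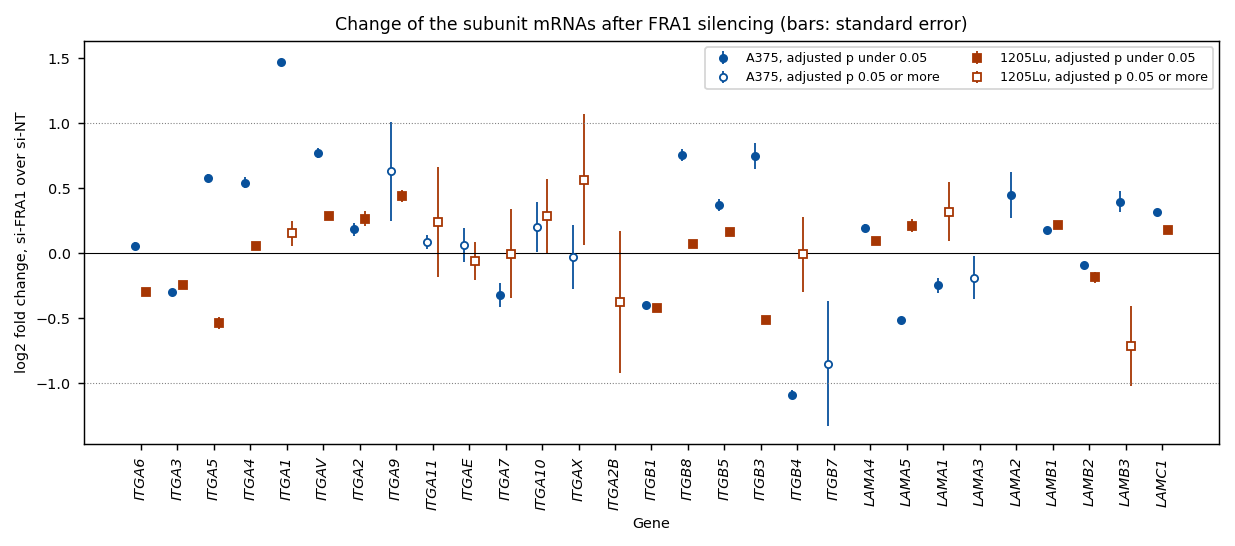
Log2 fold change of si-FRA1 over si-NT for 29 of the 30 subunits tested in A375 (blue circles) or 1205Lu (brown squares), with standard errors from the edgeR fit of 3 against 3 samples. Filled symbols passed an adjusted p of 0.05 and dotted lines mark a log2 fold change of 1; ITGA5 and ITGB3 lie above 0 in A375 and below 0 in 1205Lu.

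The other integrin chains that changed most in A375 rose. ITGAV, the alpha chain of the vitronectin receptors, went from 57.1, 55.8 and 55.8 CPM to 95.9, 94.1 and 99.3 CPM, a log2 fold change of 0.77 ± 0.038 (adjusted p = 2.7e-14). ITGB8, a partner of ITGAV that binds latent TGF-beta, went from 51.3, 48 and 46.7 CPM to 83.8, 81.2 and 82.6 CPM (0.76 ± 0.043, adjusted p = 3.8e-13). All 3 si-FRA1 samples of both genes were above all 3 si-NT samples. ITGB5, a further partner of ITGAV, rose from 68.9, 58.9 and 64.2 CPM to 83.4, 81.8 and 84.1 CPM (0.37 ± 0.046 on the log2 scale). Of the beta chains able to pair with ITGAV, ITGB1 fell, and ITGB6 was not tested, with at most 14 counts in any sample.

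ITGA4, part of a receptor for VCAM1 and fibronectin, rose in A375 from 50.7, 50.2 and 52.8 CPM to 74.6, 76.8 and 73.8 CPM, or by 0.55 ± 0.042 on the log2 scale (adjusted p = 9.8e-11). The laminin receptor chain ITGA3 fell from 821, 811 and 802 CPM to 668, 664 and 656 CPM, or -0.30 ± 0.017 (adjusted p = 3.0e-13). ITGB1, the shared partner of most alpha chains, fell from 544, 532 and 537 CPM to 403, 409 and 418 CPM, or -0.40 ± 0.02 (adjusted p = 3.6e-14). In each of these genes the groups were separate. ITGA6 was at 203, 195 and 198 CPM and then 208, 208 and 208 CPM, a log2 fold change of 0.06 ± 0.025 whose adjusted p of 0.049 was just under the limit, and by DESeq2 it was 0.099. Of the remaining chains, ITGA2 rose and ITGA7 fell, and ITGA10, ITGA11, ITGA9, ITGAE, ITGAX and ITGB7 did not pass.

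Among laminin chains in A375, LAMA5 fell from 474, 482 and 471 CPM to 337, 339.7 and 326 CPM, with a log2 fold change of -0.51 ± 0.021 (adjusted p = 8.0e-16). LAMA4 rose from 124, 118 and 126 CPM to 141, 142 and 142 CPM (0.20 ± 0.031). LAMA5, typical of epithelial basement membranes, and LAMA4, typical of vessels and mesenchymal cells, thus moved in opposite directions. LAMB1 went from 745, 726 and 729.6 CPM to 832, 846 and 818 CPM (0.18 ± 0.017, adjusted p = 6.4e-09). LAMC1, the most abundant laminin chain per kilobase, rose from 648, 661 and 655 CPM to 819, 823 and 810.2 CPM (0.32 ± 0.017, adjusted p = 9.2e-14). Without division by length, LAMB1 was above LAMC1 in each A375 sample. In these 4 genes no si-FRA1 sample fell within the range of the si-NT samples. LAMA1 and LAMB2 also fell in A375, with log2 fold changes of -0.25 and -0.09, and LAMA2 and LAMB3 rose by 0.45 and 0.40. The LAMA2 rise had an adjusted p of 0.04. LAMA3, at -0.19 ± 0.17, did not pass.

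In 1205Lu cells fewer members rose or fell, and none by more than the fold limit. Of the 27 members that passed the filter there, 10 rose and 6 fell at an adjusted p under 0.05, beside 24.0% and 23.0% of all protein-coding genes tested. The median log2 fold change was 0.07 over the members and 0.00 over all genes. By role, 2 of 3 laminin-binding alpha chains fell, ITGA4 and ITGA9 both rose, and 2 of 5 beta chains rose and 2 fell. Of 8 laminin chains tested, 4 rose and LAMB2 fell. Thus 0 members were called there, beside 2.97% of protein-coding genes. DESeq2 likewise called 0, while 17 of the 27 had an unadjusted p under 0.05 by edgeR, and the largest absolute log2 fold change among those that passed was 0.54.

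That change was in ITGA5 (ENSG00000161638.11, chr12:54395261-54419266, minus strand), the alpha chain of the main fibronectin receptor. ITGA5 was at 76.9, 71.2 and 74.1 CPM in 1205Lu si-NT and at 51.2, 53.2 and 50.8 CPM in 1205Lu si-FRA1 samples, a log2 fold change of -0.54 ± 0.043 (edgeR adjusted p = 3.6e-09). In A375 cells the same gene moved the other way, from 166, 159.7 and 166 CPM to 249.7, 253 and 235 CPM, or 0.58 ± 0.029 (adjusted p = 2.9e-14). Within each line the groups did not overlap.

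ITGB3 (ENSG00000259207.7, chr17:47253827-47313743, plus strand), which pairs with ITGAV in a receptor for vitronectin and is a marker of invasive melanoma growth, showed the same contrast. It fell in 1205Lu from 436, 444 and 442 CPM to 308, 313 and 316 CPM (-0.51 ± 0.019, adjusted p = 2.9e-14). In A375, at a much lower level, it rose from 9.53, 8.26 and 8.94 CPM to 16.2, 15.3 and 13.4 CPM (0.75 ± 0.1, adjusted p = 1.1e-06). All 3 samples of a group lay on the same side of the other group in both lines. An overlapping gene shares 33.2% of the exon length of ITGB3, and had at most 0.146 CPM on average in any group.

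The further 1205Lu changes were spread over receptors of several ligands. ITGA9, which pairs with ITGB1 and binds tenascin, rose from 38.4, 39.6 and 37.6 CPM to 51.7, 52.3 and 54.9 CPM (0.44 ± 0.048, adjusted p = 2.1e-07), and had no more than 1.21 CPM in any A375 sample. ITGB1 fell from 1002, 1010 and 994 CPM to 759, 754 and 758 CPM (-0.42 ± 0.015, adjusted p = 1.6e-14). ITGA6, the most abundant subunit in this line, fell from 1416, 1394 and 1415 CPM to 1139, 1161 and 1184 CPM (-0.30 ± 0.014, adjusted p = 1.3e-12). In all 3 genes each si-FRA1 sample lay outside the si-NT range.

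ITGAV rose in 1205Lu from 154, 150.5 and 147 CPM to 182, 184 and 192 CPM (0.29 ± 0.029, adjusted p = 6.7e-08). The collagen receptor chain ITGA2 rose from 33.1, 35.1 and 33.8 CPM to 38.1, 44.3 and 41.5 CPM (0.27 ± 0.057, adjusted p = 8.0e-04), and in A375 from 44, 41.8 and 41 CPM to 48.6, 46.2 and 49.9 CPM (0.19 ± 0.05). ITGA3 fell in 1205Lu from 132, 128 and 135 CPM to 114, 109 and 113 CPM (-0.24 ± 0.033, adjusted p = 4.1e-06). Both groups were apart in each of these comparisons.

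Smaller changes in 1205Lu were all upward in the next 7 genes. ITGB8 went from 1156, 1133 and 1140 CPM to 1203, 1227 and 1224 CPM, a log2 fold change of only 0.07 ± 0.014 (adjusted p = 2.1e-04). ITGB5 went from 281, 285 and 288 CPM to 328, 329 and 313 CPM (0.17 ± 0.024), and ITGA4 from 314, 306 and 306 CPM to 326, 325 and 324 CPM (0.06 ± 0.021, adjusted p = 0.035). For laminins, LAMA4 rose from 909, 909 and 918 CPM to 979.5, 996 and 977 CPM (0.09 ± 0.015) and LAMB1 from 781, 782 and 788 CPM to 916, 931 and 916 CPM (0.22 ± 0.015). LAMC1 rose from 824, 786 and 789.9 CPM to 920.4, 926 and 907 CPM (0.18 ± 0.018) and LAMA5 from 45.6, 49.9 and 48.8 CPM to 59, 57.7 and 52.4 CPM (0.21 ± 0.053, adjusted p = 0.0027). None of these 7 genes had overlapping groups.

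The 26 members tested in both lines were set side by side, each line against its own si-NT samples. At an adjusted p under 0.05 in each line, 8 rose in both (ITGA2, ITGA4, ITGAV, ITGB5, ITGB8, LAMA4, LAMB1 and LAMC1) and 3 fell in both (ITGA3, ITGB1 and LAMB2). ITGA5, ITGA6 and ITGB3 rose in A375 and fell in 1205Lu, and LAMA5 fell in A375 and rose in 1205Lu. The A375 rise of ITGA6, a log2 fold change of 0.06, did not pass in 7 alternative fits, DESeq2 among them. The difference between the lines was tested as an interaction over all 12 samples, expressed as the silencing effect in 1205Lu minus that in A375. Of 31 members tested, 16 passed an adjusted p of 0.05, beside 38.7% of protein-coding genes, and 7 also passed the fold limit, beside 5.23%.

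Those 7 were ITGA1, ITGA5, ITGA8, ITGB3, ITGB4, LAMA2 and LAMB3. The difference in log2 fold change was -1.11 ± 0.051 for ITGA5 (adjusted p = 8.6e-15), -1.25 ± 0.072 for ITGB3 (5.5e-13) and -1.30 ± 0.073 for ITGA1 (3.8e-13). For ITGB4 it was 1.12 ± 0.21 (1.6e-04), resting on 1205Lu samples with 26 counts or more. LAMB3 was at 12.6, 12.6 and 12.7 CPM and then 17, 16.3 and 16.7 CPM in A375, where it rose, and at 1.63, 1.64 and 1.52 CPM and then 1.12, 1.11 and 0.716 CPM in 1205Lu, where the log2 fold change of -0.71 ± 0.31 did not pass (adjusted p = 0.075). Its interaction was -1.10 ± 0.23 (adjusted p = 4.9e-04).

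LAMA2 and ITGA8 rested on few counts. LAMA2, the alpha chain of muscle laminin, had 70, 67 and 66 counts in A375 si-NT, 118, 97 and 100 in A375 si-FRA1, 7, 4 and 2 in 1205Lu si-NT and 2, 0 and 1 in 1205Lu si-FRA1 samples. In CPM that was 3.16, 2.65 and 2.73, then 3.61, 4.04 and 4.04 in A375, and 0.232, 0.178 and 0.0821, then 0.0973, 0 and 0.0478 in 1205Lu. ITGA8, an alpha chain for RGD ligands, had 1, 4 and 2 counts and then 11, 17 and 8 counts in A375, and 15, 7 and 12 counts and then 7, 2 and 7 counts in 1205Lu. The fitted interactions of -2.19 ± 0.78 and -2.94 ± 0.95 (adjusted p = 0.034 and 0.019) depend at these depths on the prior count of the fit, and both calls were lost under several alternatives. Within the lines, LAMA2 was not called in A375 and not tested in 1205Lu, and ITGA8 was tested in neither.

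The make-up of each class of chains in mRNA was compared next. As shares of the summed CPM per kb of all alpha chains, ITGA3 went from 51.1% ± 0.36 to 38.05% ± 0.031 (SD, n = 3), ITGA1 from 4.56% ± 0.17 to 11.6% ± 0.12 and ITGA5 from 13.7% ± 0.25 to 18.7% ± 0.60. ITGA3 thus held the largest alpha share of A375 with either siRNA. Of the beta chains, ITGB4 went from 32.8% ± 0.85 to 19.6% ± 0.55, ITGB5 from 12.8% ± 0.80 to 21.1% ± 0.046 and ITGB8 from 4.2% ± 0.13 to 8.995% ± 0.11. ITGB1 kept the largest beta share in A375, at 48.2% ± 0.47 and 46.5% ± 0.78, and the sum of the beta chains went from 76.5 ± 1.5 to 60.5 ± 0.75 CPM per kb. In 1205Lu ITGA6 went from 74.7% ± 0.16 to 70.6% ± 0.28 of the alpha chains, ITGB1 from 27.2% ± 0.19 to 22.8% ± 0.20 and ITGB3 from 25.5% ± 0.20 to 20.1% ± 0.25 of the beta chains. ITGB8 went there from 29.8% ± 0.37 to 35.2% ± 0.28. These shares are descriptions of mRNA, with no test, and do not count receptors at the surface. They rest on the joined exon lengths.

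Of the laminin alpha chains in A375, LAMA5 stood at 71.5% ± 0.57 and then 61.9% ± 0.48, and LAMA4 at 22.0% ± 0.88 and then 31.2% ± 0.50. In 1205Lu LAMA4 made up 95.6% ± 0.24 and 95.2% ± 0.28. LAMC1 accounted for 98.7% or more of the gamma chains in every group.

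**Figure D3:**
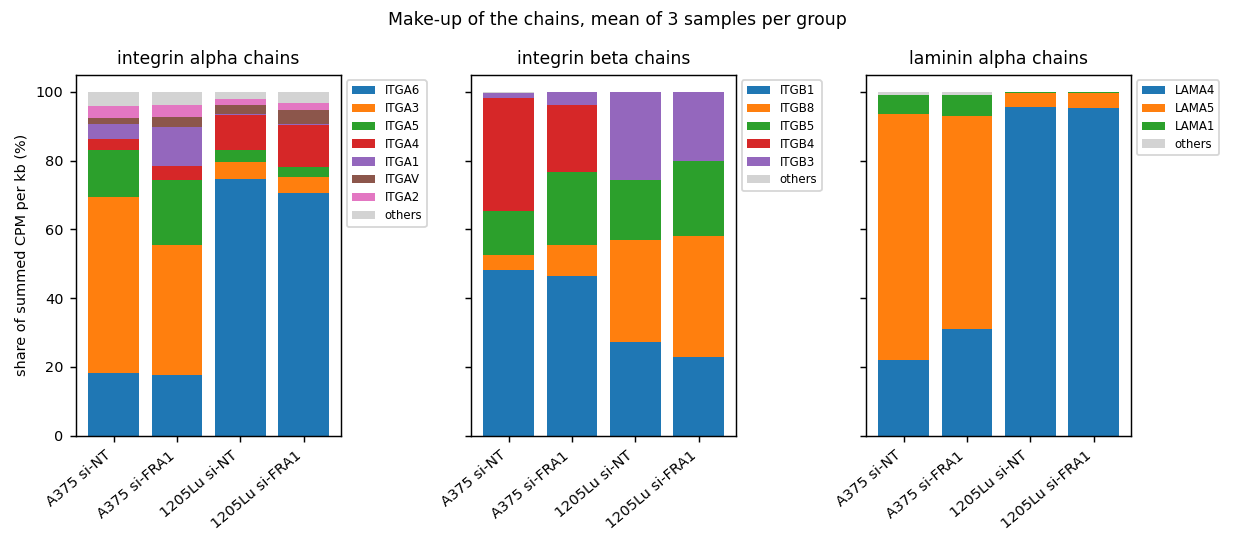
Share of each chain in the summed CPM per kb of the integrin alpha, integrin beta and laminin alpha chains, as stacked bars from 0 to 100% for the 4 RNA-seq groups (means of 3 samples). Chains above 3% in any group are drawn by name; ITGB4 takes 32.8% and then 19.6% of the beta chains in A375 and is not visible in 1205Lu.

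Genes around the subunits were taken from lists, whose counts stand beside 29.9% of protein-coding genes that rose and 27.8% that fell in A375, and 24.0% and 23.0% in 1205Lu. Of 29 integrin tail and adhesion plaque genes tested in A375, 9 rose and 13 fell, and of 30 in 1205Lu 6 rose and 15 fell, with median log2 fold changes of -0.07 and -0.18 against 0.01 and 0.00 over all genes. ITGB1BP1, which encodes ICAP1, a protein that binds the tail of ITGB1, was the only called gene of that list. It fell in 1205Lu from 23.6 ± 1.4 to 10.96 ± 1.1 CPM (log2 fold change -1.13 ± 0.087, adjusted p = 1.8e-09) and in A375 from 32.2 ± 0.57 to 17.8 ± 0.64 CPM (-0.86 ± 0.064, adjusted p = 4.3e-11). ITGB1 itself fell in both lines as well.

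Of the integrin ligands other than laminins, 10 rose and 3 fell of 18 tested in A375, and 8 rose and 1 fell of 16 in 1205Lu. SPP1, or osteopontin, a ligand of ITGAV receptors, rose in A375 from 8.63 ± 0.36 to 32.8 ± 2.4 CPM (log2 fold change 1.92 ± 0.080, adjusted p = 1.1e-15) and was below 1 CPM in 1205Lu. THBS1, or thrombospondin, rose in both, from 739 ± 11 to 1531 ± 7.4 CPM in 1205Lu (1.03 ± 0.015, adjusted p = 1.4e-20) and from 672 ± 4.0 to 1083 ± 9.5 CPM in A375 (0.68 ± 0.016). VTN, or vitronectin, was called in A375 at 0.450 ± 0.33 and 1.08 ± 0.61 CPM, an adjusted p of 0.046 on very few reads. Of the basement membrane and hemidesmosome genes, 5 rose and 10 fell of 20 in A375, with PLEC the only call, and 7 rose and 2 fell of 16 in 1205Lu with none called. The median log2 fold change of that list was -0.36 in A375 and 0.08 in 1205Lu.

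Cut&Run gave 54563 consensus peaks over both lines, and 177 of them overlapped a member or came within 3 kb of one of its transcription starts. Of these, 65 were promoter peaks by that distance, 109 were intronic and 3 exonic, and 33 of the 38 members had at least 1. No peak was listed at ITGA2B, ITGAM, ITGAV, ITGB4 or LAMC3. A peak was taken as enriched when the count in every FRA1 sample reached 10 and was 4 times that of IgG (after adding 1 to the latter) or more. Raw counts were used, and with 1 IgG sample per line there is no p-value. The FRA1 libraries held 3354095 to 5316527 counts in peaks in A375 against 383994 with IgG, and 583750 to 897407 in 1205Lu against 314569, so the lines are not comparable in the number of peaks that passed. In 1205Lu, FRA1 replicates 2 and 3 agreed within sampling noise over peaks with 60 or more counts, though not over those with 20 or more, and were counted as 1 sample, with n = 2.

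In A375, 19 of 38 members had an enriched peak within 3 kb of a start, beside 27.6% of all protein-coding genes. In 1205Lu it was 4 members (ITGB1, ITGB5, LAMA2 and LAMA4), beside 3.72% of genes. Long genes with many starts have more chances to hold such a peak, and this was not adjusted for. With FRA1 and IgG counts scaled to the same total the A375 count was 2, and the share of all genes under that scaling is not given here. Anywhere at the gene, 100 peaks of 27 members were enriched in A375 and 16 peaks of 10 members in 1205Lu, 9 of them in both lines. That was 56.5% of the peaks at members in A375 beside 57.4% of all peaks, and 9.04% beside 7.09% in 1205Lu.

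The FOS/JUN sequence was searched as TGAGTCA and its reverse complement TGACTCA within 100 bp of the centre of each peak. It was in 58 of the 177 peaks at members, or 32.8% (95% Wilson interval 26.3 to 39.99%), beside 28.6% of all consensus peaks. Among peaks enriched in A375 it was in 44 of 100 at members (44%, 34.7 to 53.8%) and in 34.0% of all. For peaks enriched in 1205Lu it was in 5 of 16 at members (31.25%, 14.2 to 55.6%) and in 30.4% of all. These intervals cover counting error only. The matches in 3 of the peaks with high A375 counts, at ITGB5, LAMA3 and LAMB1, and in the peaks of ITGB3 and ITGB1 enriched in both lines are printed from the GRCh38 plus strand, with the matching bases in capitals and 11 bases on each side. Apart from ITGB3 they were chosen after their values were seen.
ITGB5, chr3:124879034-124879062: ccaaaattcacTGACTCAcccctgtgttt
LAMA3, chr18:23719736-23719764: ttctttgtagcTGACTCAgatgtggaggg
LAMB1, chr7:107952487-107952515: caagatgctggTGAGTCAttttaaaattg
ITGB3, chr17:47267476-47267504: gagacttctgaTGAGTCAgtcacttttaa
ITGB1, chr10:32980648-32980676: acacatcacaaTGAGTCAcgtgctctgtg

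The ITGB5 site lay in a promoter peak (chr3:124878323-124879669) centred within 0.3 kb of an internal start, with 706, 1040 and 818 counts in the A375 FRA1 samples and 20 with IgG. In 1205Lu the same peak had 208, 425 and 321 counts against 18. It was the highest peak at any member in 1205Lu. The LAMB1 site was in an intronic peak (chr7:107951713-107953393) with 327, 597 and 426 counts in A375 against 19, and 33, 58 and 49 in 1205Lu against 14. The LAMA3 site was in an intronic peak (chr18:23719150-23720391) with 416, 598 and 466 counts in A375 against 12, and 50, 86 and 101 in 1205Lu against 8. In 1205Lu the counts at LAMA3 and ITGB5 met the enrichment limit, and those at LAMB1 did not.

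ITGB1 had a promoter peak (chr10:33005015-33006231) with 267, 404 and 317 counts in A375 against 3 with IgG, and 81, 140 and 120 in 1205Lu against 5, with no match near its centre, beside the intronic peak whose site is shown. ITGA6 had no promoter peak, and its strongest peak (chr2:172441082-172442851) was intronic, with 297, 447 and 362 counts in A375 against 11 and 135, 259 and 242 in 1205Lu against 9. ITGB3 likewise had intronic peaks only, the highest in A375 being chr17:47266955-47268018 with 118, 195 and 149 counts in A375 against 15 and 30, 79 and 62 in 1205Lu against 2. All 3 were enriched in both lines, and of their genes ITGB1 fell in both lines after silencing, while ITGA6 fell in 1205Lu and ITGB3 rose in A375 and fell in 1205Lu.

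Peaks were also listed at the other members called within a line or for the difference between lines, except ITGB4. At ITGA1 the highest enriched peak (chr5:52799524-52801526) was intronic, with 92, 200 and 132 counts in A375 against 20. At ITGA5 it was a promoter peak near an internal start (chr12:54411295-54411863), with 51, 52 and 54 counts against 7. The peak at the outer end of ITGA5 (chr12:54419247-54419659), with 27, 48 and 23 counts against 6, was not enriched. LAMB3 had a promoter peak 54 bp from a start (chr1:209650810-209651750) with 154, 255 and 215 counts in A375 against 3. The enrichment rule by itself required all A375 FRA1 samples to exceed IgG at the enriched peaks of ITGA1, ITGA5 and LAMB3. Raw counts were compared, and the A375 IgG library held 383994 counts in peaks against 3354095 or more in each FRA1 library. Of all peaks, 57.4% met the same limit in A375. In 1205Lu none of these 3 peaks was enriched. At LAMA2 a promoter peak (chr6:129490189-129491692) near an internal start had 541, 805 and 683 counts against 20, and 13, 18 and 25 in 1205Lu against 1. At ITGA8 an intronic peak (chr10:15609096-15609770) had 32, 61 and 60 counts against 4. ITGB4, which fell most in A375, had none listed within the gene or near its starts.

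**Figure D4:**
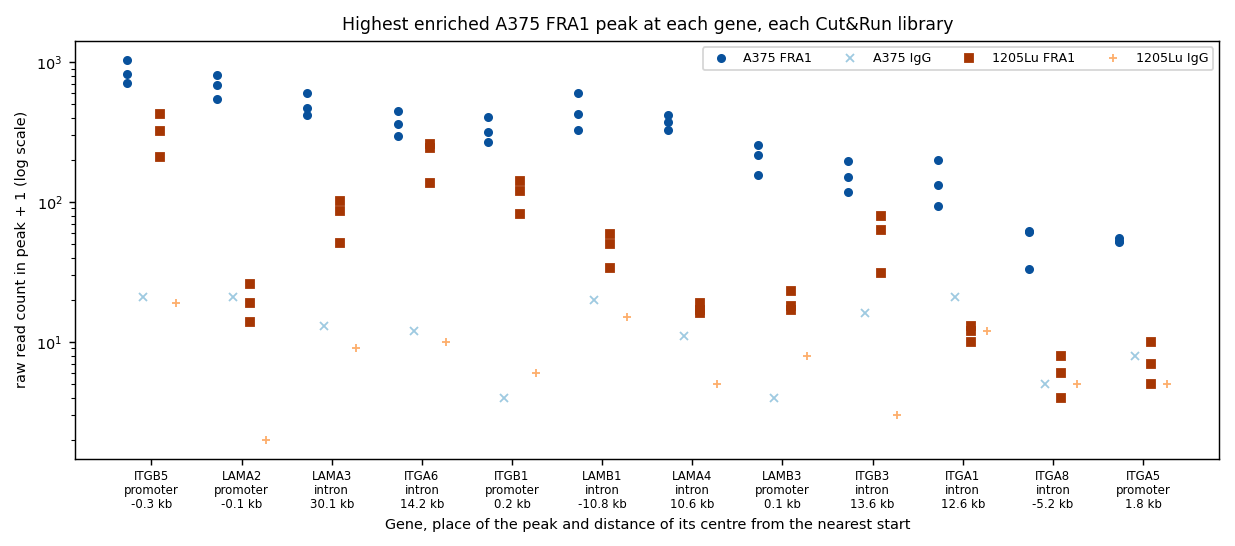
Raw read counts plus 1, on a log axis, in the enriched A375 peak with the highest mean FRA1 count at each of 12 subunits, with a point per Cut&Run library; the place of the peak and the distance of its centre from the nearest start stand below each gene. FRA1 samples of A375 (blue circles) reach 1040 at ITGB5, and those of 1205Lu (brown squares) exceed 200 only at ITGB5 and ITGA6; crosses are IgG.

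Between the lines, 44 of the 177 peaks at members had more FRA1 signal in 1205Lu and 44 more in A375 by edgeR's test on TMM-scaled counts, or 24.9% each, beside 20.6% and 26.3% of all peaks tested. The balance moved with the scaling: by DESeq2's size factors 47 were higher in 1205Lu and 31 in A375, and by total counts in peaks 38 and 56. The 7 peaks enriched in 1205Lu only, which were selected on their 1205Lu counts and are described with no test, lay at LAMB1, ITGA9, ITGB5 and LAMC1. One of them was an intronic LAMB1 peak (chr7:107946514-107947571), with 4, 7 and 7 counts in A375 against 111, 196 and 171 in 1205Lu. ITGA9, which was far higher in 1205Lu, had an intronic peak (chr3:37608351-37609215) with 7, 10 and 10 counts in A375 and 55, 136 and 131 in 1205Lu. These peaks were chosen after their values were seen.

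In the RefSeq promoters of GRCh38.p14, from 250 bases before to 50 after a start, 26 of the 38 members were matched by symbol. The FOS/JUN sequence was in 3 of them (ITGA5, LAMA3 and LAMB3), or 11.5%, beside 4.95% of all promoters. Members were counted per gene, by a match in any of its promoters, and the whole set per promoter. The shares are therefore not the same measure. A match describes the sequence and does not show binding.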

How the data were processed

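For RNA-seq of 12 samples, strand-specific reads were trimmed with cutadapt 1.8.1 and aligned to GRCh38 with STAR 2.7.7a, and RSEM 1.3.0 estimated reads per gene of a Gencode model. The authors deposited these expected counts as whole numbers, without normalization. For Cut&Run of 8 samples, reads were aligned with Bowtie2 2.4.1, peaks were called with MACS2 2.1.1.20160309, and the authors deposited raw counts per consensus peak. The sources used here do not say if samples were pooled before peak calling. Tool versions are those of the submitters' processing notes.

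Counts were tested in R 4.3.3 with edgeR 4.0.16 (filterByExpr, TMM, quasi-likelihood test), each line on its own, and all 12 samples together for the interaction and for the si-NT groups, with Benjamini-Hochberg adjustment over all genes or peaks tested. DESeq2 1.42.0, upper-quartile scaling, no low-count filter, a replicate block, single samples left out and other peak limits were alternatives. CPM used TMM library sizes of all 12 samples. RSEM divides reads between overlapping genes, which affects genes that share exons. CPM per kb used exon lengths and starts of GENCODE v44, which is not the authors' annotation and matched 99.5% of 19968 protein-coding gene IDs. The tests within each line and the peak test were run on simulated counts with 200 planted changes each. They recovered 198 in A375, 196 in 1205Lu and only 100 for peaks. The coefficient of biological variation was 4.51% in A375 and 4.2% in 1205Lu. The 1205Lu FRA1 libraries 2 and 3 had a chi-square per degree of freedom of 1.00 over peaks with 60 or more counts, were summed in the peak test, and entered means as 1 sample. That minimum was set after the data had been seen, and with a minimum of 20 the chi-square per degree of freedom was 1.06.

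Members, gene lists and rules were chosen with earlier results of these data known. Values per sample are given for the members called in a line or for the interaction, for the 8 largest changes past the adjusted p in each line, and for the 8 members with the highest CPM per kb. List genes are named when called. Some results are not reported here.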

Additional observations from a re-analysis of the deposited data

Results flagged for a closer look

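The effect of silencing FRA1 differed between the lines, by the interaction test of edgeR (adjusted p below 0.05), for 16 members, given as the log2 fold change in 1205Lu minus that in A375. The difference was negative for 13. It was -1.30 for ITGA1, -0.48 for ITGA4, -1.11 for ITGA5, -0.34 for ITGA6, -0.47 for ITGAV, -1.25 for ITGB3, -0.20 for ITGB5 and -0.67 for ITGB8. Among laminin chains it was -0.094 for LAMA4, -1.10 for LAMB3 and -0.12 for LAMC1. ITGA8 at -2.94 and LAMA2 at -2.19 rested on few counts.

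It was positive for ITGB4 (1.12), LAMA1 (0.60) and LAMA5 (0.74). ITGA5 and ITGB3 rose in A375 and fell in 1205Lu, and LAMA5 did the opposite. ITGA6 fell in 1205Lu, and its A375 rise of 0.06 passed narrowly and was lost in 7 alternative fits. ITGA4, ITGAV, ITGB5, ITGB8, LAMA4 and LAMC1 rose in both lines by unequal amounts. The 1205Lu fold changes of ITGB4, LAMA1, LAMA2 and LAMB3 came from far fewer counts than those in A375.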

How the results depend on the processing

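With the adjusted p alone and no fold limit, 22 of 29 tested members passed in A375, 16 of 27 in 1205Lu and 16 of 31 for the interaction. Of all protein-coding genes tested, 29.9% rose and 27.8% fell in A375, 24.0% rose and 23.0% fell in 1205Lu, and 38.7% passed for the interaction. The calls within A375 (ITGA1 and ITGB4) were kept in every alternative, and ITGA8 was added without a low-count filter or with all 12 samples in one fit. The interaction calls ranged from 4 to 7 with single samples left out. Without 1205Lu si-FRA1 replicate 2, ITGA8, ITGB4 and LAMA2 were lost, and without 1205Lu si-FRA1 replicate 3, LAMA2 and LAMB3 were lost. LAMA2 was also lost by DESeq2, without a low-count filter and with a replicate block. ITGA1, ITGA5 and ITGB3 were called in each of these. For the values of named members, no alternative reversed the direction, 500 alternative values stayed on the same side of the adjusted p limit and 30 did not, for ITGA6, LAMA2 and LAMB2 in A375, ITGA4 in 1205Lu, and ITGA8 and LAMA2 for the interaction.

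Members with an enriched promoter peak in A375 numbered 12 at 8 times the IgG count and 2 with counts scaled to the same total. In 1205Lu they numbered 7 at 2 times and 2 at 8 times. The shares of all protein-coding genes under these alternatives are not given here, so these counts cannot be set beside them. The FOS/JUN sequence was in 61.02% of peaks at members when searched over the whole peak. Equal replicate numbers did not pair samples, as correlations of their deviations lay between -0.016 and 0.019. With the replicate block 2 members were called in A375, 0 in 1205Lu, 6 for the interaction and 24 between the si-NT groups. For peaks, the block was fitted with all 6 FRA1 libraries as separate samples and called 85, against 87 with these libraries and no block. Low counts limit ITGA8, LAMA2, ITGA2B and LAMA3, and ITGB4 and LAMB3 in 1205Lu.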
